A study of Mus musculus with 32 samples.

Results

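The 14-3-3 proteins are small acidic adaptor proteins that work as dimers and bind other proteins at phosphorylated serine or threonine. Binding can hide a localization signal, fix the shape of an enzyme or bring partners together, and kinases and phosphatases that write and erase the site therefore control it. Brain is known for its high content of these proteins, and in neurons they are known to bind channels, kinesin light chains, the dynein regulator Ndel1 and the RAF kinases. The mouse family has 7 genes, and all of them were taken here by name: Ywhab (the beta protein), Ywhae (epsilon), Ywhag (gamma), Ywhah (eta), Ywhaq (theta, also called tau), Ywhaz (zeta) and Sfn (sigma, also called stratifin, known from epithelia). They were 7 of the 44081 genes in the 3′UTR count table and had 15 of the 74532 separate 3′ end features, and the rule that names them uses none of their values. The study asked which RNAs, and which 3′ ends of an RNA, are found in dendrites.

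The samples were 16 single hippocampal neurons of C57BL/6 mice, cultured from embryonic day 18 for 15 days without any treatment that the labels name. The dendrites and the soma of each neuron were cut apart with a pipette and collected into separate tubes, which gave 16 dendrite and 16 soma libraries paired by neuron. Polyadenylated RNA was amplified by aRNA, an in vitro transcription method, in 3 rounds for neurons 1 to 4 and in 2 rounds for neurons 5 to 16. The labels do not name a neuron type, the sex or the culture dish, so rounds of amplification cannot be told apart from other differences between neurons 1 to 4 and the rest.

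Depth was 646521 to 6954420 reads on 3′UTRs in dendrites and 925525 to 21169974 in somas, and dendrites had 1570 to 9871 genes with at least 10 reads against 6041 to 12185 in somas. Mitochondrial genes took 2.39% to 35.8% of the dendrite reads and 0.277% to 8.12% of the soma reads. The dendrite library of neuron 15 stood apart, with the fewest detected genes (1570), the highest mitochondrial share (35.8%) and 207 spike-in reads per 1000 exon reads, and the dendrites of neuron 16 came next with 2485 genes and 32.4%. The neuronal label was borne out by Map2, a dendritic microtubule protein, with at least 10 reads in 16 of 16 dendrites and 16 of 16 somas. Gad1, which makes the transmitter GABA, had at least 10 reads in all 32 libraries, with medians of 6990 CPM in somas and 1722 CPM in dendrites. Slc17a7, the vesicular glutamate transporter of pyramidal neurons, had medians of 4.24 CPM in somas and 47.0 CPM in dendrites. It had at least 10 reads in 10 somas and 13 dendrites. Grin1 and Neurod6, which the study named with Mtap2 as highly expressed pyramidal markers, had soma medians of 43.1 and 14.0 CPM. They had at least 10 reads in 14 and 8 somas. CPM is reads per 1000000 3′UTR reads after TMM scaling, so it is a share of a library's reads and not an amount of RNA. Summed marker levels in dendrites reached 1675 CPM for 6 astrocyte genes and 386 CPM for 6 microglia genes, and in somas 514 and 11.8 CPM.

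Because aRNA amplification starts at the poly(A) tail, the reads of each gene pile up next to its cleavage sites. Annotated ends of 6 of the genes are shown for that reason, as 30-base windows 5′ to 3′ on the transcript strand of GRCm38, with a polyadenylation signal in capitals where the last 50 bases of the transcript held AATAAA or ATTAAA.
Ywhab (chr2:164018559-164018588, plus strand): ttaaagtgaAATAAAacattttatcagtta
Ywhae (chr11:75765816-75765845, plus strand): atcATTAAAgtacaacagtcatttaacaca
Ywhag (chr5:135908409-135908438, minus strand): acattgagcaaAATAAActtacagatctga
Ywhah (chr5:33027937-33027966, plus strand): gagtaAATAAAtgctgctttagggatatta
Ywhaz, most 3′ end (chr15:36770770-36770799, minus strand): gtaaatgctcAATAAAtattgatgatggga
Ywhaz, middle end (chr15:36771569-36771598, minus strand): cttttaccaattttgaatgcagagtttatc
Ywhaz, most 5′ end (chr15:36771704-36771733, minus strand): tgtaagtggAATAAAagttttatgaatgga
Sfn (chr4:133600556-133600585, minus strand): accactcAATAAAgttgccctgtgacactc
Of the 11 annotated ends of the 7 genes, 10 held a signal, and a search on the transcript strand found one at 60.0% of the 40883 annotated ends of protein-coding transcripts. The sets were not built alike. Ends of the 7 genes had a minimum 3′UTR length and were counted once per position, and nearby ends of a gene can share a signal. The larger set was all distinct 50-base tails without that minimum, so the shares cannot be compared closely. Ywhaz was the exception at its middle end, where neither hexamer was found in the window searched. Its other ends lie 799 and 934 bases upstream of the most 3′ one. The end of Ywhae held ATTAAA, which 14.3% of all annotated ends hold, and no AATAAA.

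The genes differ in size and in where they lie. Ywhab (chr2:163994960-164018588, plus strand) has 6 exons in its longest 3′UTR transcript and a 3′UTR of 1863 bases. Ywhae (chr11:75732869-75765845, plus strand) has a 3′UTR of 1173 bases, and Ywhag (chr5:135908409-135934616, minus strand) the longest of the family, 2586 bases. Ywhah (chr5:33018816-33027966, plus strand) has 771 bases, Ywhaq (chr12:21390071-21417637, minus strand) 1285 and Ywhaz (chr15:36770770-36796929, minus strand) 1948. Sfn (chr4:133600556-133602168, minus strand) is a gene of 1 exon with a 3′UTR of 467 bases. The coding sequences are alike at 59.9% (Ywhae with Ywhah) to 78.7% (Ywhag with Ywhah) of aligned positions. Their 3′UTRs are not: the longest run shared by 2 of them is 22 bases (Ywhab with Ywhae), shorter than the 75- or 100-base reads, so reads on these regions separate the members. Processed copies of Ywhaq are annotated elsewhere in the genome, and the counts used uniquely mapped reads only.

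Of the 7 genes, 6 were abundant in both compartments and Sfn was not. Ywhab, Ywhae, Ywhag and Ywhaz had reads in all 32 libraries, and Ywhah and Ywhaq in 31 each. To set levels of different genes side by side, exon CPM was divided by the length of the merged exons. The reads lie near the 3′ ends, so this division lowers the value of a gene with long exons, and the order without it, in 3′UTR CPM, is given where it differs. Ywhab was highest on both scales, with a median of 848 CPM per kilobase in dendrites and 856 in somas. Ywhag followed in dendrites with 322 CPM per kilobase and Ywhae with 225, while in somas Ywhae (313) and Ywhag (305) stood close together. Without division by length Ywhag was above Ywhae in 16 of 16 dendrite and 15 of 16 soma libraries, with soma medians of 1643 and 733 CPM, so the order of these genes in somas depends on the scale. Ywhaq, Ywhaz and Ywhah made up the lower group, with medians of 103, 88.9 and 59.4 CPM per kilobase in dendrites and 132, 108 and 109 in somas. Within it the order was loose. Ywhaq was above Ywhaz in 8 of 16 dendrite libraries and Ywhah above Ywhaz in 7 of 16 somas. Without division by length Ywhaz had the higher soma median, 404 CPM against 385 for Ywhah, and was above it in 9 of 16. By contrast, Ywhab was above Ywhae in 16 of 16 somas. In dendrites Ywhae was above Ywhaq in 16 of 16 libraries (11 of 16 without division by length). The exon counts of Ywhaq are low against its 3′UTR counts, which were the larger in 28 of 32 libraries and up to 2.07 times as large. The 6 genes together took 0.143% to 1.15% of the 3′UTR reads of a dendrite library (median 0.517%) and 0.501% to 0.974% of a soma library (median 0.667%).

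**Figure D1:**
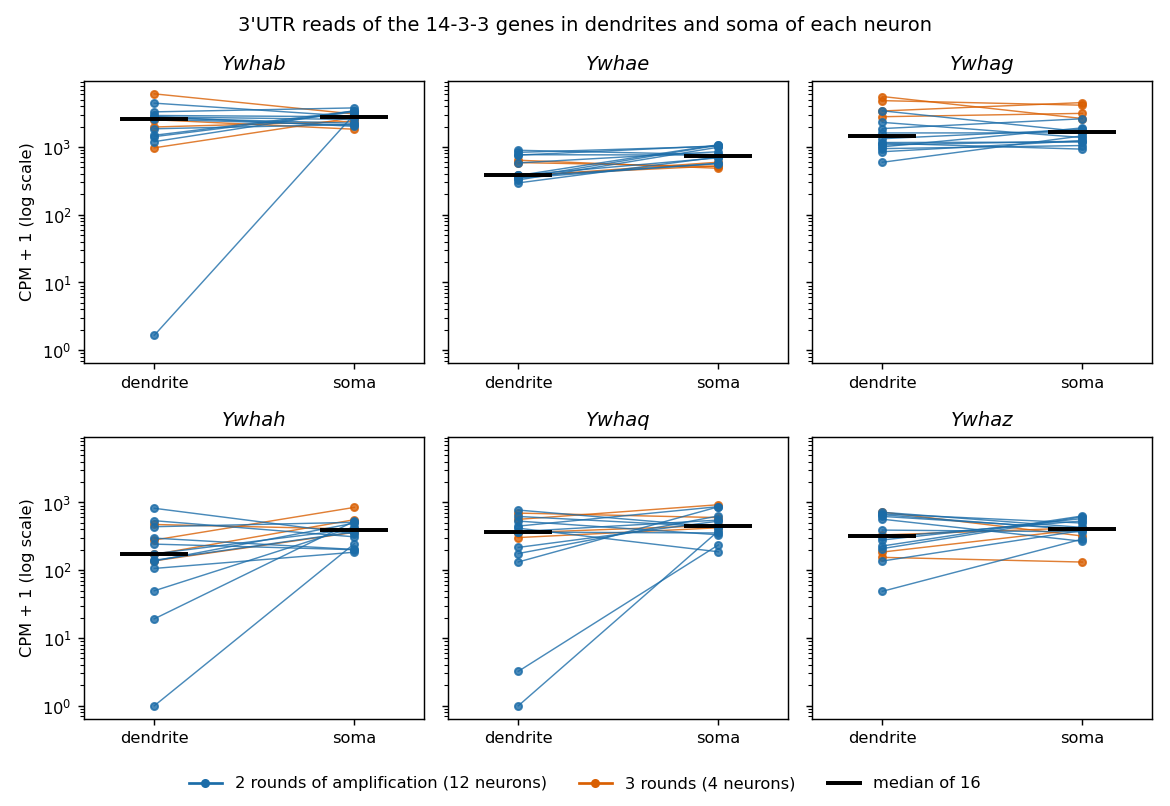
TMM-scaled CPM + 1 (log scale) of 6 genes in the dendrite and soma library of each neuron, joined by a line, with orange for the 4 neurons of 3 rounds, blue for the 12 of 2 rounds and black bars for medians over 16 libraries. Soma values of Ywhab lie between 1822 and 3763, while Ywhab, Ywhah and Ywhaq fall to at most 1 read in the dendrites of neuron 15.

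No 14-3-3 gene passed the test between compartments. edgeR's quasi-likelihood test with neuron as a block and Benjamini-Hochberg adjustment over 10880 genes called 0 of the 6 tested members, where called means an adjusted p of at most 0.05. In the same fit 90 genes (0.827%) were called higher in dendrites and 621 (5.71%) lower. At an unadjusted p under 0.05 the count of members was also 0, and DESeq2 called 2 lower, where it called 46.2% of all genes lower and 4.26% higher. The median log2 fold change (dendrite over soma) of all genes was -1.49, and each of the 6 members lay above it, by 0.32 to 1.41 on the log2 scale.

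Ywhag was the most even of the family in the fit. Its level was 592 to 5538 CPM in dendrites (median 1463) and 926 to 4507 CPM in somas (median 1643), and the ranges overlapped almost fully. It was higher in the dendrites of 5 neurons and in the soma of 11. The log2 fold change was -0.08 ± 0.35 (SE, adjusted p = 0.882), with an interval of -0.76 to 0.59 (estimate ± 1.96 SE), and 77.6% of the genes tested had a lower value. Ywhag is known from epileptic encephalopathy when mutated in humans. In the dendrites of neurons 15 and 16, the libraries with the fewest genes, it had 1513 and 799 reads.

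Ywhab, the member with the most reads, had 0.662 to 6063 CPM in dendrites (median 2541) and 1822 to 3763 CPM in somas (median 2744). Dendrites were higher in 8 neurons and somas in 8. Its log2 fold change was -0.38 ± 0.44 (SE, adjusted p = 0.548). Single neurons moved that value. The dendrites of neuron 15 had 1 Ywhab read against 28084 in the soma, and without this neuron the estimate was 0.09 (adjusted p = 0.841). It was -0.02 without neuron 12, -0.04 without neuron 3, -0.18 without neuron 13 or 16 and -0.19 without neuron 1. The median of all genes moved as well, from -1.49 with all neurons to -1.18 without neuron 12 and -1.05 without neuron 15. Ywhab lay 1.11 above that median with all neurons. In the fits named here it lay between 0.87 (without neuron 16) and 1.18 (without neuron 3) above it. Over the 16 neurons the paired difference on the log2(CPM + 1) scale had an SD of 2.77, and without neuron 15 the SD was 0.80.

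Ywhae, whose protein binds phosphorylated Ndel1, was the member higher in the soma in the most neurons. It had 294 to 891 CPM in dendrites (median 380.3) and 483 to 1077 CPM in somas (median 733), with 12 of 16 neurons higher in the soma. The groups overlapped, and the largest soma excess was in neuron 12 (345 against 1060.1 CPM) and the largest dendrite excess in neuron 3 (635 against 483 CPM). The log2 fold change was -0.62 ± 0.44 (SE, adjusted p = 0.326), and DESeq2 gave -0.87 with an adjusted p of 0.0174.

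Ywhah and Ywhaq varied most between neurons once neuron 15 was left out, with SDs of the paired log2(CPM + 1) difference of 1.59 and 1.82 against 0.63 to 1.15 for the other 4. Ywhah was 0 to 819 CPM in dendrites (median 172) and 184 to 845 CPM in somas (median 385), higher in the soma of 11 neurons. Its log2 fold change of -1.17 ± 0.66 (SE, adjusted p = 0.215) was the lowest in the family, with an interval of -2.48 to 0.13. DESeq2 gave -1.47 (adjusted p = 0.0164). Low dendrite libraries were neuron 15 with 0 reads, neuron 7 with 19 and neuron 8 with 91, beside 2267, 3525 and 2129 reads in the respective somas. In neuron 9 the order turned, with 819 CPM in dendrites and 344 in the soma.

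Ywhaq was 0 to 771 CPM in dendrites (median 367) and 186 to 925 CPM in somas (median 447), with 10 neurons higher in the soma. The fitted log2 fold change was -0.83 ± 0.63 (SE, adjusted p = 0.356). Its reads were missing where the library was poorest, with 0 reads in the dendrites of neuron 15 and 3 in those of neuron 16, against 3499 and 2578 in their somas. In the neuron with the strongest dendrite excess, neuron 12, dendrites had 416 CPM and the soma 186. Ywhaz was 47.8 to 719 CPM in dendrites (median 318) and 131 to 632 CPM in somas (median 404), with 8 neurons on each side. In the fit it was at -0.32 ± 0.53 (SE, adjusted p = 0.684).

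The dendrites of neuron 15 lacked some members and kept others. Ywhab, Ywhah and Ywhaq had 1, 0 and 0 reads in its dendrites, while Ywhag had 1513, Ywhae 1254 and Ywhaz 421. Such gaps were shared by other genes. Of 179 genes with at least 100 reads in each of the other 31 libraries, 34 had at most 3 reads in this one. Its depth, 2235244 reads, was within the range of the other dendrite libraries. The reads carry no molecular identifiers, so floors from counts cover counting error only, and the number of RNA molecules behind a library is not known. Intervals of fold changes come from the fit over neurons.

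The variability of a member among neurons was gauged by its dendritic fraction, dendrite CPM over the sum of both compartments. The SD of the fraction was 10.3 percentage points for Ywhae, 10.8 for Ywhag, 17.3 for Ywhab, 17.7 for Ywhaz, 21.4 for Ywhaq and 21.5 for Ywhah (n = 16 neurons each). Among 3478 genes with at least 10 reads in at least 24 libraries the median was 27.0 points, and 99.7% of them varied more than Ywhae and 99.6% more than Ywhag. These shares describe the data without a test, and depth moves with them: over all 10471 genes with enough reads, shallow ones included, the median SD was 32.6 points. Mean fractions ran from 34.6% for Ywhah to 48.6% for Ywhag.

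Dendrite-to-soma differences of the members were compared with each other across neurons. All 15 pairs of genes had a positive Spearman correlation of the log2 difference over the 16 neurons, from 0.19 (Ywhae with Ywhaq) to 0.77 (Ywhag with Ywhaq), with a median of 0.36. Across dendrites alone 15 of 15 pairs were positive, with a median of 0.33. Across somas alone 10 of 15 pairs were positive, and the lowest was -0.47 between Ywhae and Ywhag. All points of a comparison share the libraries, their depth and their scaling, so these are descriptions. The same values were not computed for pairs of other genes, so they cannot be read as a trait of the family.

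**Figure D2:**
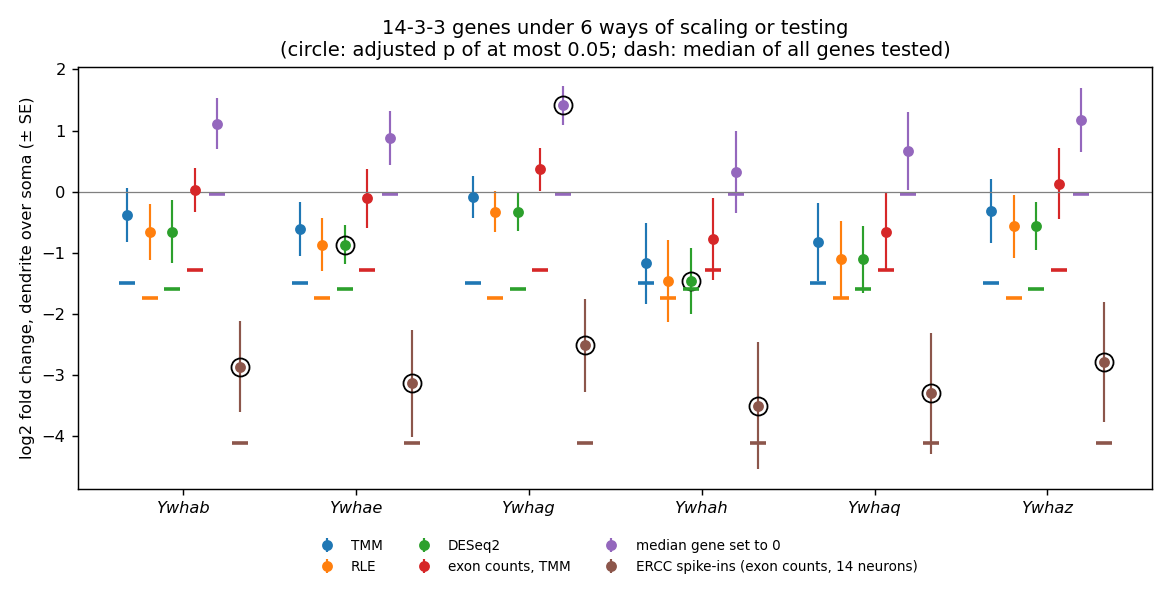
Log2 fold change of dendrites over somas (± SE) of 6 genes under 6 ways of scaling or testing, where dashes mark the median of all genes tested and circles an adjusted p of at most 0.05. Each gene lies above the dash of its own setting in these 6, while the sign changes with the setting. Ywhag is called higher with the median gene set to 0, DESeq2 calls Ywhae and Ywhah lower, and spike-in scaling calls all 6 lower.

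The sign of a member's change depended on what was held constant. When the median gene was set to 0, all 6 estimates were positive, and Ywhag passed the test at 1.41 (adjusted p = 0.00324), with 5.04% of all genes called higher and 0.846% lower. When exon counts of 14 neurons were scaled to ERCC spike-ins, synthetic RNAs that the labels report at the same dilution for neurons 3 to 16, all 6 were called lower. That fit left out neurons 1 and 2, for which the labels give a dilution of 0 although the study's methods describe spike-ins in each tube, and whose libraries held 59 to 80 spike-in reads against at least 3083 in the others. It called 62.7% of all genes lower and 0.153% higher. There the log2 fold changes ran from -3.50 for Ywhah to -2.51 for Ywhag, and the median gene was at -4.11. In both scalings, as with TMM, RLE and DESeq2, each member was above the median gene. That place depended on the genes, the model and the neurons. Without the neuron block the median gene was at -0.22 and Ywhae, Ywhah and Ywhaq lay below it. Without a filter on low counts it was at -0.17 over 31102 genes and all 6 lay below. In the neurons of 3 rounds alone the median gene was at -0.62 and Ywhah lay below it at -0.96.

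The ends of a transcript were counted apart in the second table. Each feature is the last 500 bases of an end, numbered within its gene, and the table gives no coordinates, so a number cannot be tied to a window above. Lower numbers were taken as more 3′. Ywhab and Sfn had 1 feature each, Ywhae, Ywhag and Ywhah 2 each, Ywhaq 3 and Ywhaz 4. Of the 15, 10 had reads in at least 16 libraries and were tested. Most genes used 1 end almost alone: end 1 held 99.9% ± 0.136 (SD, n = 16) of Ywhae reads in dendrites and 99.98% ± 0.0463 of Ywhag reads, 98.2% ± 6.24 (SD, n = 15) of Ywhah reads and 98.4% ± 2.01 (SD, n = 14) of Ywhaq reads.

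Ywhae end 2 was the only member feature called between compartments. It had 0 to 3.02 CPM in dendrites (median 0) and 0 to 36.5 CPM in somas (median 3.44). In reads, dendrites held 6 in all, over 4 libraries, and somas 1220 over 13. The somas of neurons 9 and 13 were highest, with 493 and 366 reads, and their dendrites had 1 and 0. The soma was higher in 13 neurons, the dendrites in 2, and 1 neuron had none in either. The log2 fold change was -5.16 ± 1.29 (SE, adjusted p = 0.0102, edgeR over 10652 ends), where 16.9% of all ends were called lower and 0.723% higher. DESeq2 called it as well, among 6 lower ends of members, with 60.2% of all ends called lower and 2.09% higher. The call was lost in the 4 neurons of 3 rounds alone, with a value of -0.49 (adjusted p = 0.982), beside -6.66 (adjusted p = 0.0130) in the 12 of 2 rounds, and a filter of at least 10 reads in 16 libraries removed the feature. With so few dendrite reads the size of this fold depends on the prior count of the fit, and the direction and the counts are the safer reading. Relative to the median end, which was at -2.14, it lay at -3.02.

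The share of each end within its gene was compared next. Of the reads on both Ywhae ends, end 1 took 99.94% ± 0.136 (SD) in dendrites and 99.18% ± 1.01 in somas (n = 16 pairs). The share was higher in dendrites in 13 neurons and lower in 2. Depth differed with it: dendrite libraries had 266 to 4666 reads on both ends (median 664) and somas 574 to 15580 (median 4234), and 12 dendrite and 3 soma libraries had no read on end 2. The part of depth in these shares was not tested. An exact two-sided signed-rank test gave p = 0.00427, and after adjustment over the 3508 genes tested 0.818. Of all genes, 8.44% had an unadjusted p under 0.1, the limit used in the study's methods, and 0 passed after adjustment. Of the 5 members that could be tested, Ywhae alone was under 0.1. Ywhaq (p = 0.542), Ywhaz (p = 0.528), Ywhah (p = 0.365) and Ywhag (p = 1.0) were not, in the same exact test.

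**Figure D3:**
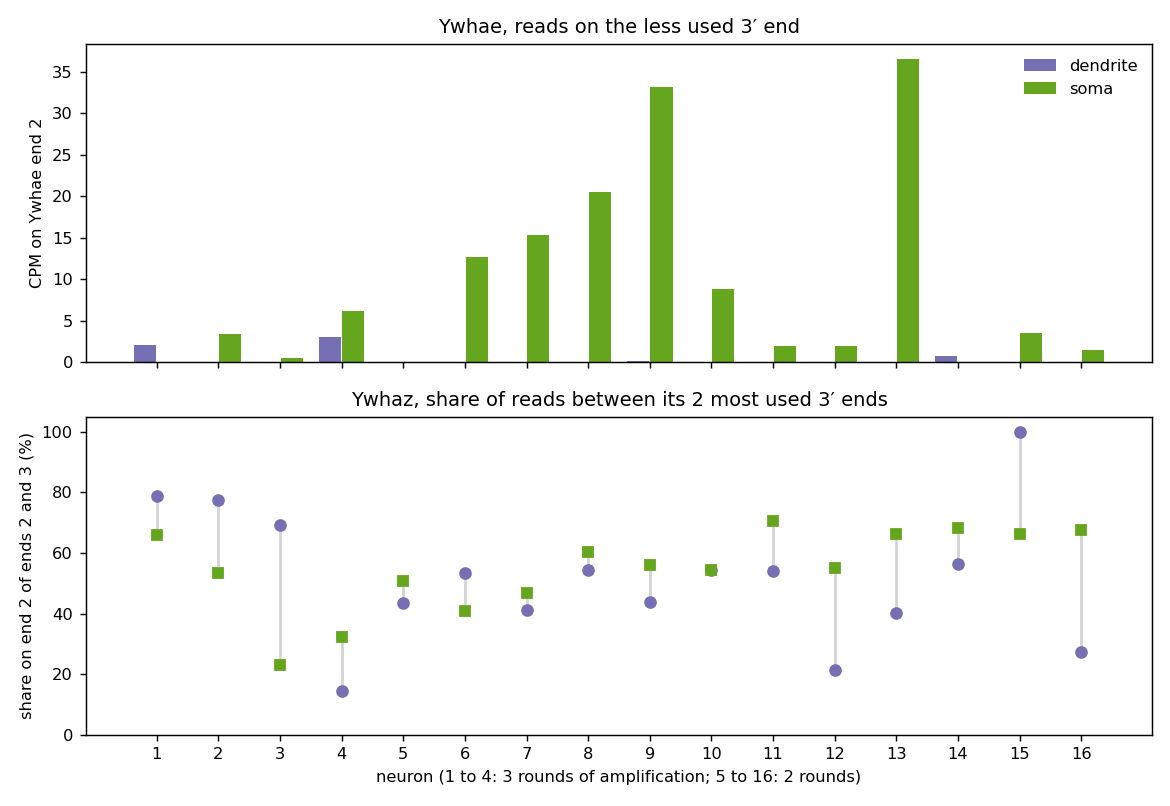
Above, CPM on Ywhae end 2 in each neuron, with bars from 0; below, the share of Ywhaz reads on end 2 among ends 2 and 3, with a grey line between the dendrites (circles) and the soma (squares) of a neuron. Ywhae end 2 is near 0 in every dendrite library, and the Ywhaz shares scatter from 14.5% to 99.8% in dendrites and 23.0% to 70.4% in somas.

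Ywhaz was the member that divided its reads between ends. Ends 2 and 3 took most of them in both compartments. Of the reads on these ends, end 2 held 51.9% ± 22.1 (SD) in dendrites and 54.8% ± 13.7 in somas (n = 16 pairs), a mean difference of -2.96 points with an SD of 23.8. Leaving out 1 neuron moved the mean difference from -6.24 points (neuron 3) to -0.46 points (neuron 16), and in the neurons of 2 rounds alone it was -9.40 points. Dendrites ran from 14.5% in neuron 4 to 99.8% in neuron 15, and somas from 23.0% in neuron 3 to 70.4% in neuron 11. The compartments overlapped, and the dendrite share was lower in 11 neurons and higher in 5. Neurons could differ strongly within themselves: neuron 3 had 69.4% in dendrites and 23.0% in its soma, and neuron 16 had 27.2% and 67.6%. End 1 was a smaller part, with reads in 12 dendrite and 16 soma libraries and 0 to 199 CPM in dendrites against 1.55 to 140.1 in somas. Its log2 fold change was -1.84 ± 1.24 (SE, adjusted p = 0.252). End 4 had 2 reads in all dendrites and 100 in all somas and was not tested.

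The minor ends of the other genes were low. Ywhah end 2 reached 124 reads in the dendrites of neuron 10 and 129 over all dendrites, so 1 library supplied nearly all of them, and somas had 376. Ywhaq end 3 had 96 reads in dendrites and 1256 in somas, of which neuron 13 gave 541. Its log2 fold change was -1.59 ± 1.08 (SE, adjusted p = 0.253). Ywhaq end 2 had reads in neuron 2 only, 3 in each compartment. Ywhag end 2 had 7 reads in dendrites and 35 in somas. The major ends followed their genes, and none passed the test: Ywhae end 1 was at -0.80 ± 0.48 (SE, adjusted p = 0.200) and, in CPM of that table, higher in the soma of 15 neurons, and Ywhah end 1 at -1.36 ± 0.70 (adjusted p = 0.139).

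Sfn, whose protein is known from keratinocytes and other epithelial cells, was the member that neurons did not use widely. It had reads in 4 of 16 dendrite and 6 of 16 soma libraries and was not tested. Dendrites of neuron 11 held 237 reads (47.7 CPM) and those of neuron 1 held 12, while the somas of both neurons had 0. Somas of neurons 16, 10, 7, 4 and 3 held 127, 52, 34, 33 and 15 reads. Only neuron 3 had reads in both compartments, 1 in its dendrites. A count of 0 allows up to 3 reads, which is 0.431 to 4.64 unscaled CPM in dendrites and 0.142 to 3.24 in somas. Of 6 epithelial genes (Krt5, Krt14, Krt8, Krt18, Epcam and Cdh1), 3 were at 0 in all dendrites and 4 in all somas. In the 7 libraries with at least 10 Sfn reads their summed level was at most 0.14 CPM. The dendrites of neuron 10, with 188 CPM of these genes, had no Sfn read.

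Rounds of amplification were the technical group the labels give. The interaction of compartment with rounds was not called for any of the 6 members (adjusted p = 1.0 for each), nor for any of the 10880 genes, of which 288 had an unadjusted p under 0.05. DESeq2 was not run for this test. Estimates of the change in log2 fold change from 2 to 3 rounds were 0.04 to 0.72, with SEs of 0.81 to 1.45. For Ywhae end 2 the interaction was 5.58 ± 2.56 (SE, unadjusted p = 0.0357, adjusted p = 1.0).

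Within the somas, Ywhag differed with rounds, in a comparison that was added after the data were seen. The 4 somas of 3 rounds had 2621, 3124, 4123 and 4507 CPM, and the 12 of 2 rounds 926 to 2601 CPM (median 1415). The groups did not overlap, though the nearest values, 2601 in neuron 7 and 2621 in neuron 4, almost met. The log2 fold change of 3 over 2 rounds was 1.25 ± 0.25 (SE, adjusted p = 0.0155, edgeR over 10880 genes), with 0.708% of all genes called higher and 0.404% lower. Without neuron 1 it was 1.21 (adjusted p = 0.0618) and without neuron 2 it was 1.28 (adjusted p = 0.0512), with 3 somas of 3 rounds left in each fit. Dendrites of 3 rounds had 2788, 3388, 4816 and 5538 CPM and those of 2 rounds 592 to 3408 (median 1147), and Ywhag was at 1.55 ± 0.56 there (log2 scale, SE, adjusted p = 0.544), where 0.0276% of all genes were called higher. No other member was called in either compartment, and the next largest soma value was 0.63 ± 0.33 for Ywhah (adjusted p = 0.469), beside -0.68 ± 0.26 for Ywhae (adjusted p = 0.247). Marker sums of these somas are given beside it. In somas, 5 interneuron genes summed to 1546 to 9220 CPM with 3 rounds and 7430 to 22236 CPM with 2 rounds, and 6 pyramidal genes to 694 to 2520 against 104 to 907 CPM, and none of these genes was at 0 in all libraries. Both pairs of ranges overlap. Without Map2, which is no marker of pyramidal neurons alone, the other 5 pyramidal genes summed to 27.6 to 2025 CPM with 3 rounds and 34.9 to 407 CPM with 2. Their part in the Ywhag difference was not tested.

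**Figure D4:**
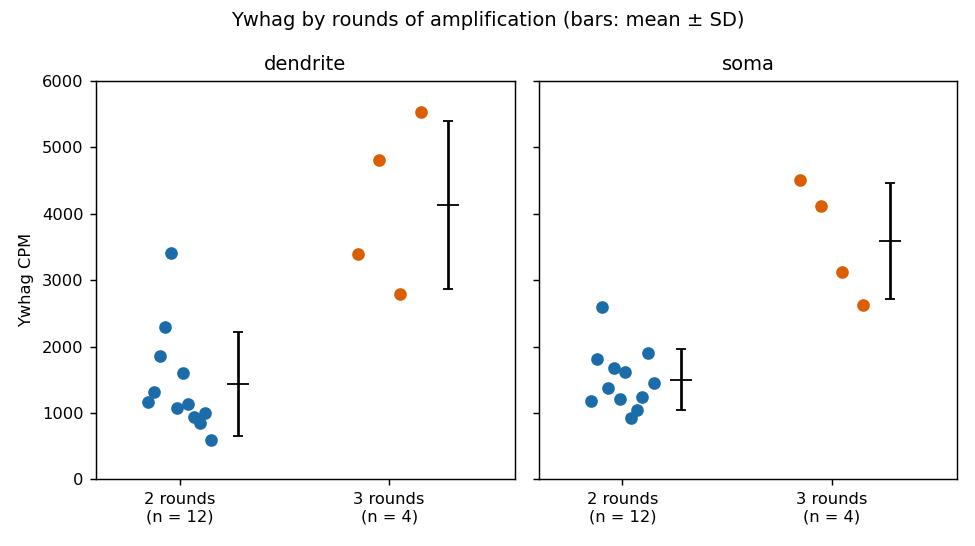
Ywhag CPM in dendrites (left) and somas (right) by rounds of amplification, as points per library with the mean ± SD beside them. The 4 somas of 3 rounds sit between 2621 and 4507 CPM and the 12 of 2 rounds between 926 and 2601, and in dendrites the groups overlap.

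Genes on either side of 14-3-3 binding were read from the same fit. Of 50 client proteins, 34 were tested, 2 were called lower in dendrites and 0 higher, or 5.88% called against 6.53% of all genes. Their median log2 fold change was -1.70, beside -1.49 for all genes. Camkk1, a kinase that activates other calmodulin-dependent kinases, fell, with a dendrite median of 0 and a soma median of 29.6 CPM (log2 fold change -6.79 ± 1.72 SE, adjusted p = 0.0181).

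Among 39 kinases of the kind that create 14-3-3 sites, 33 were tested, 2 were called lower in dendrites and 0 higher (6.06%). The median was -0.94. Prkaa1, a catalytic subunit of AMP-activated kinase, was at -5.22 ± 1.45 (SE, adjusted p = 0.0260), with reads in 4 dendrite and 13 soma libraries. Dapk1, death-associated protein kinase, was at -5.77 ± 1.73 (SE, adjusted p = 0.0370), although its highest library was a dendrite, with 165 CPM. Of 8 phosphatase catalytic subunits 7 were tested and 0 were called, with a median of -1.30. The smallest p among them belonged to Ppp3cb, a calcineurin subunit, at -3.33 ± 1.22 (SE, adjusted p = 0.0756), followed by Ppp2ca of protein phosphatase 2A at -1.30 ± 0.49 (adjusted p = 0.0816) and Ppp3cc at -3.02 ± 1.28 (adjusted p = 0.113). Ppp2ca was higher in the soma of 15 neurons. The shares called were near the background, and they moved with single libraries: of the 4 genes called over the 3 lists, 2 were still called without neuron 3, 12, 13 or 15 and 1 without neuron 16. DESeq2 called 38 of the 74 tested (51.4%), beside 50.5% of all genes.

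The genes whose pattern was most like that of each member were found by Spearman correlation over the 32 libraries of log2(CPM + 1), after the mean of each compartment was taken off, among 3477 other genes. For Ywhag they were Atg12 (0.82), Cox7a2l (0.77) and Gm10123 (0.75), and for Ywhah Ubqln1 (0.77), Ube2e3 (0.71) and Vma21 (0.69). Ywhaq was closest to Fkbp1a (0.77), Nrip3 (0.76) and Glrx5 (0.72), and Ywhaz to Mbd3 (0.73), Gorasp2 (0.70) and Lypla2 (0.68). Ywhab had Gnl3l, Ubqln2 and Rbbp7 at 0.69 to 0.70. Ywhae had the weakest neighbours, Qdpr (0.59), Thra (0.57) and Klc2 (0.56), of which Klc2, a kinesin light chain, is also on the client list. Over all genes compared the median correlation was -0.05 for Ywhae and 0.10 to 0.18 for the other 5. Of these 18 genes 0 were called between compartments, where 6.53% of all genes were. The 18 came from genes with at least 10 reads in at least 24 libraries and were picked for likeness to uncalled members. The sets are therefore unlike, and nothing is drawn from the count.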

How the data were processed

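RNA of the dendrites and the soma of 16 neurons was amplified by aRNA and sequenced on a HiSeq or NextSeq from stranded libraries. The authors trimmed the reads, aligned them to mm10 with STAR (2.4.0 in the submitters' processing notes) and used VERSE to count reads that mapped uniquely. All values used are deposited raw counts: on the merged 3′UTR regions of a gene, on the last 500 bases of separate 3′ ends, and on exons with ERCC spike-ins.

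From these counts, genes with 1 or more reads in 16 or more libraries were compared with edgeR 4.0.16 in R 4.3.3 (TMM, robust quasi-likelihood test, neuron as a block), with adjusted p of at most 0.05. The SE was taken from the estimate and its F statistic. End shares were compared with exact signed-rank tests over pairs with at least 10 reads in at least 5 neurons, in Python 3.11 with SciPy 1.17.1. DESeq2 1.42.0, other scalings and filters, and leaving out each neuron were alternatives. Steps were tested on simulated data with 200 changed genes. For the compartment test the changes put in were larger than any member gene's reported estimate, and neurons had no effects of their own. Those runs do not gauge the power to call differences of the members' size. Annotation came from GENCODE on GRCm38. P-values measure the spread between neurons, whose number of cultures is not given in the sources used here.

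The pairing comes from the cells. Residuals of both compartments correlated at 0.0887 ± 0.0772 (SD, n = 16) in the same neuron and -0.00559 ± 0.0526 (SD, n = 240) between neurons, and 0 of 496 library pairs were identical. The rule takes the members by name, but the family and the lists were chosen with earlier results of these data known. Named genes were all members and their ends, the called genes of each list (at most 6, otherwise the 3 of smallest p) and the 3 genes most like each member. The comparisons of rounds within a compartment and the alternatives for Ywhae end 2 were chosen after seeing the data. The values of 1 called client gene and the end window of 1 member are not reported here.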

Additional observations from a re-analysis of the deposited data

Results flagged for a closer look

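Among the 4 neurons of 3 rounds, 14 sets of values (7 genes in dendrites and in somas) were searched for a sample far from the others, a search in which chance marks about 1 in 20 sets. It marked 1, Sfn in the dendrites of neuron 1, with 16.1 CPM from 12 reads against 0 to 0.817 CPM in the other 3 dendrites.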

How the results depend on the processing

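Counts of calls changed most with the tool and the scaling. Of the 6 genes tested, 0 were called in the reported fit, 2 with DESeq2 (Ywhae and Ywhah, lower), 1 with the median gene set to 0 (Ywhag, higher) and 6 with ERCC scaling of 14 neurons (lower). Ends called numbered 1 as reported, 6 with DESeq2, 0 with at least 10 reads in 16 samples (Ywhae end 2 was filtered out) and 0 in the neurons of 3 rounds alone, where Ywhae end 2 was at -0.49 (adjusted p = 0.982). Pathway genes called numbered 4 as reported, 38 with DESeq2 (which called 50.5% of all genes), 1 with no replicate block, 1 with at least 10 reads, 0 in the neurons of 3 rounds and 2 without a filter. With the 0.1 limit on unadjusted p, 1 member (Ywhae) had a changed end share, against 0. The cause of these changes was not tested.

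Signs turned in several genes. With the median gene set to 0 the log2 fold changes were 1.11 for Ywhab, 0.88 for Ywhae, 1.41 for Ywhag, 0.32 for Ywhah, 0.67 for Ywhaq and 1.17 for Ywhaz. In the neurons of 3 rounds alone Ywhab was at 0.12, Ywhae at 0.049, Ywhag at 0.36 and Ywhaz at 0.17. On exons Ywhab was at 0.021, Ywhag at 0.37 and Ywhaz at 0.13, and with at least 10 reads Ywhag was at 0.26 and Ywhaz at 0.031. Without the replicate block Ywhag was at 0.059, and no member's call changed with the block, while the counts of all genes called went from 90 higher and 621 lower to 157 and 77.

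Leaving out each neuron gave 0 called members throughout and 1 called end. The log2 fold changes then ran from -0.48 to 0.088 for Ywhab, -0.67 to -0.24 for Ywhae, -0.16 to 0.27 for Ywhag, -1.34 to -0.68 for Ywhah, -0.95 to -0.35 for Ywhaq and -0.42 to 0.13 for Ywhaz, with adjusted p from 0.193 to 0.999. Ywhae end 2 ran from -5.82 to -4.66, Ywhag in somas of 3 over 2 rounds from 1.21 to 1.48 (adjusted p from 0.00825 to 0.0618), and pathway calls from 1 to 6. End shares turned sign for Ywhag (-0.0103 to 0.0121 points) and Ywhah (-1.46 to 0.461 points) and ran from 0.599 to 0.833 points for Ywhae, 0.291 to 2.60 for Ywhaq and -6.24 to -0.46 for Ywhaz. The neurons of 3 rounds alone give 4 pairs, and values of Sfn and the minor ends rest on few reads or few libraries.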
